A study of Homo sapiens with 6 samples.

Results

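The TGF-beta ligands, receptors, SMADs and closely linked genes examined here are 10 genes chosen by symbol: TGFB1, TGFB2, TGFBR1, TGFBR2, SMAD2, SMAD3, SMAD4, SMAD7, SKIL and TGFBI. All 10 were present among the 15598 genes of the deposited count table, and all 10 passed the filter on low counts that left 11831 genes for testing. RNA sequencing was done on MHCC97H cells, a highly metastatic human hepatocellular carcinoma line. In one group HNRNPC was depleted with a short hairpin (shHNRNPC, 3 libraries), and the other carried the control hairpin (shcontrol, 3 libraries). The labels name 1 knockdown only, and whether the libraries came from separate cultures is not stated, so p-values measure the spread between these libraries. The product of HNRNPC, hnRNP C, sits in the nucleus on new transcripts and prefers runs of uridine.

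TGF-beta ligands are secreted in a latent form, and once released they bring together the type II receptor TGFBR2 and the type I receptor kinase TGFBR1. TGFBR1 phosphorylates SMAD2 and SMAD3, which join SMAD4 and enter the nucleus to regulate target genes. SMAD7, which blocks TGFBR1, and SKIL, a nuclear corepressor also called SnoN, restrain the response, and both are themselves induced by it. In hepatocellular carcinoma the pathway is known for growth arrest in early disease and for invasion and epithelial-mesenchymal transition later.

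Total counts were 16692497 to 17889820 in shHNRNPC libraries and 15563077 to 18328475 in shcontrol libraries. HNRNPC had 1010 to 1164 counts in shHNRNPC libraries, against 13507 to 15908 counts in shcontrol libraries. Hepatocyte markers were nearly absent, with a summed level of 0.393 to 1.01 CPM (counts scaled to library size) in shHNRNPC and 0.491 to 0.951 CPM in shcontrol libraries. Epithelial markers were mixed in level. Of 5 tested, 4 were higher in shHNRNPC and 0 lower (edgeR adjusted p under 0.05), against 29.8% and 31.3% of all tested genes. The keratins KRT8 and KRT18 were at 1159 ± 8.20 and 405 ± 8.77 CPM in shHNRNPC and 1006 ± 7.07 and 364 ± 7.16 CPM in shcontrol (SD, n = 3 each), while KRT19 had at most 2 counts and EPCAM at most 7 counts in any library. JUP and CLDN4 were at 7.06 ± 1.32 and 64.3 ± 2.01 CPM in shHNRNPC, against 3.51 ± 0.183 and 43.7 ± 2.09 CPM in shcontrol. CDH1, at 16.2 ± 0.309 CPM in shHNRNPC and 14.6 ± 2.40 CPM in shcontrol, did not pass. Summed leukocyte markers were 63.2 to 67.6 CPM in shHNRNPC and 41.6 to 48.3 CPM in shcontrol libraries. Almost all of that was CD68, a lysosomal protein that is not limited to leukocytes, while the leukocyte marker CD3E had at most 1 count in any library. Summed fibroblast and stellate cell markers were 27.0 to 28.0 CPM in shHNRNPC and 27.1 to 29.7 CPM in shcontrol libraries, and endothelial markers 1.40 to 2.07 CPM and 1.66 to 2.51 CPM. Whether these markers have a part in the results was not tested.

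The knocked-down cells had 2.14-fold less TGFB2 transcript, less TGFBR1, SMAD4 and SKIL, and more TGFBR2, while TGFB1 and SMAD7 did not pass the test. By edgeR's quasi-likelihood test at a Benjamini-Hochberg adjusted p of 0.05, 3 of the 10 genes were higher and 5 lower. Across all tested genes 29.8% were called higher, 31.3% lower and 61.1% either way, and read against that background the count of 8 called genes is no result about these 10 as a set. In a stricter test, which asks whether a change exceeds 1.5-fold, 1 of the 10 was called, TGFB2, which was lower. Of all tested genes 5.14% passed this stricter test, 1.83% higher and 3.3% lower. The median log2 fold change was -0.073 over the 10 genes and -0.0041 over all tested genes. The 3 values of each group did not overlap for 7 of the 10 genes, against 64% of all tested genes. In bulk RNA, fewer cells that express a gene and less of its RNA per cell cannot be told apart.

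**Figure D1:**
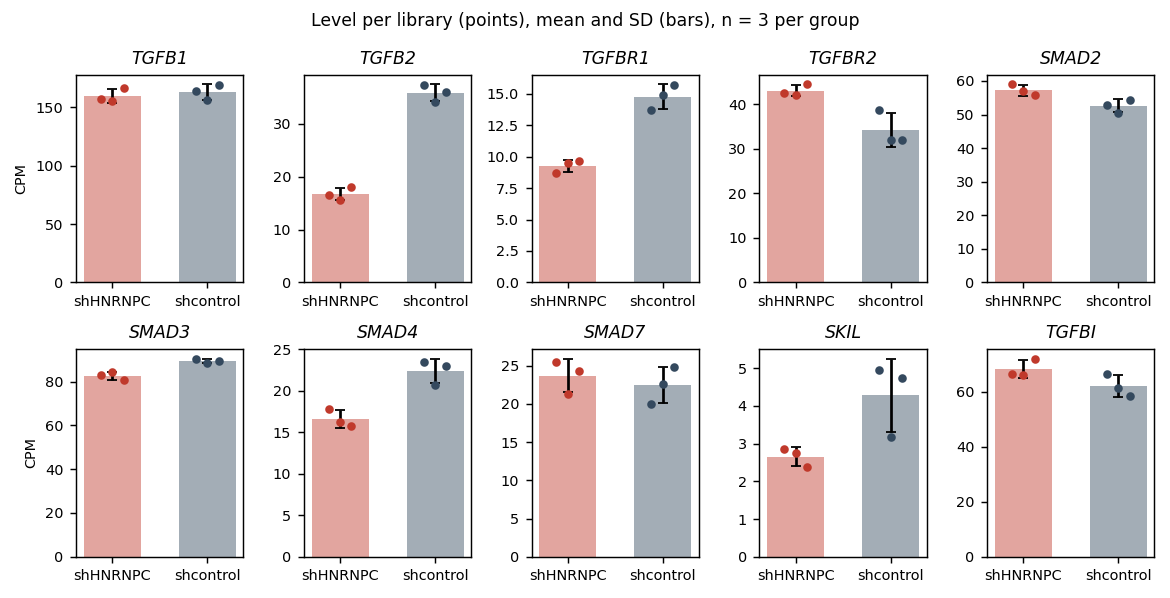
Level of each of the 10 genes in CPM, with the 3 shHNRNPC libraries left and the 3 shcontrol libraries right in each panel. Points are libraries, bars are means and whiskers are SD. TGFB2, TGFBR1, SMAD4 and SKIL sit lower in every shHNRNPC library, and TGFBR2 sits higher.

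TGFB2 showed the largest difference of the 10 genes. This ligand differs from TGFB1 in needing the coreceptor TGFBR3 for high-affinity binding. The deposited table places TGFB2 on chromosome 1, 218346235 to 218444619, on the plus strand. It had 16.5, 15.6 and 18.05 CPM in shHNRNPC libraries (SI_3, SI_3_2, SI_3_3, the order kept throughout), against 37.3, 34.2 and 36.1 CPM in shcontrol libraries (NC_3, NC_3_2, NC_3_3). Every shHNRNPC value lay far below every shcontrol value. TGFB2 averaged 16.7 ± 1.22 CPM in shHNRNPC and 35.9 ± 1.59 CPM in shcontrol cells (SD, n = 3 each), a 2.14-fold fall (log2 fold change -1.10, 95% interval -1.25 to -0.96, edgeR adjusted p = 8.15e-18). Of all tested genes, 0.980% had a lower log2 fold change. The fall was smaller after offsets for transcript GC content and length, with a log2 fold change of -0.76, and it no longer passed the test against 1.5-fold (edgeR adjusted p = 0.0836).

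TGFB1, the most widely studied ligand of the family, was the more abundant of the pair and was close in both groups. The deposited table places it on chromosome 19, 41330323 to 41353911, on the minus strand. It had 157, 156 and 166 CPM in shHNRNPC libraries, against 164, 156 and 169 CPM in shcontrol libraries, and the groups overlapped. The log2 fold change was -0.031 with a 95% interval of -0.098 to 0.036 (edgeR adjusted p = 0.428). With GC content and length offsets TGFB1 was called lower, at a log2 fold change of -0.21 (adjusted p = 5.29e-08). In GENCODE 29 TGFB1 has a wider span, 41301587 to 41353911. CCDC97, HNRNPUL1 and TMEM91 are among the genes that overlap this wider span on the opposite strand. Whether each also overlaps the deposited span was not examined. Whether counting used the strand is not given in the sources used here, so reads of these genes cannot be told apart with certainty. Per kilobase of the longest coding transcript, the level of TGFB1 was 17.3, 18.2 and 16.8 times that of TGFB2 in shHNRNPC libraries, against 8.02, 8.32 and 8.54 times in shcontrol libraries. The ratio averaged 17.4 ± 0.682 in shHNRNPC and 8.29 ± 0.264 in shcontrol (SD, n = 3 each), with a 2-sided exact permutation p of 0.1, the smallest that 3 against 3 libraries allow. This ratio was chosen after its values were seen. With TGFB1 close in both groups and TGFB2 far lower, its p could take no other value and adds no support.

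The 2 receptors moved in opposite directions. TGFBR1, the type I kinase, had 8.70, 9.47 and 9.62 CPM in shHNRNPC libraries, against 13.7, 14.9 and 15.7 CPM in shcontrol libraries. All shHNRNPC values were lower than all shcontrol values. The 1.59-fold fall had a log2 fold change of -0.67 (95% interval -0.87 to -0.47, edgeR adjusted p = 1.21e-07). With GC content and length offsets the log2 fold change was -0.29 (adjusted p = 0.0107). TGFBR2, the ligand-binding type II receptor, had 42.7, 42.1 and 44.5 CPM in shHNRNPC libraries, against 38.7, 32.0 and 32.1 CPM in shcontrol libraries. One shcontrol library, NC_3, stood above the other two, and the groups still did not overlap. The 1.26-fold rise had a log2 fold change of 0.33 (95% interval 0.21 to 0.46, edgeR adjusted p = 1.17e-05), and it was 0.35 with the offsets. The level of TGFBR2 per kilobase was 6.91, 6.27 and 6.52 times that of TGFBR1 in shHNRNPC libraries, against 3.98, 3.04 and 2.89 times in shcontrol libraries. That ratio averaged 6.57 ± 0.324 in shHNRNPC and 3.30 ± 0.594 in shcontrol (SD, n = 3 each), and it was also chosen after its values were seen. Its 2-sided exact permutation p was 0.1, the smallest possible here. With each receptor already apart between the groups in opposite directions, that p could take no other value and adds no support. The deposited table places TGFBR1 on chromosome 9, 99127916 to 99149341, and TGFBR2 on chromosome 3, 30606502 to 30694134, both on the plus strand.

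The start regions of the ligand that fell most and the receptor that rose are shown because these genes had the largest fall and the largest rise of the 10. They are RefSeq promoter windows in GRCh38.p14, from 250 bases before to 50 bases after an annotated start, chr1:218345086-218345385 for TGFB2 and chr3:30606351-30606650 for TGFBR2, both on the plus strand. The TGFB2 window lies upstream of the gene start in the deposited table, and TGFBR2 has a further window that is not printed.
TGFB2: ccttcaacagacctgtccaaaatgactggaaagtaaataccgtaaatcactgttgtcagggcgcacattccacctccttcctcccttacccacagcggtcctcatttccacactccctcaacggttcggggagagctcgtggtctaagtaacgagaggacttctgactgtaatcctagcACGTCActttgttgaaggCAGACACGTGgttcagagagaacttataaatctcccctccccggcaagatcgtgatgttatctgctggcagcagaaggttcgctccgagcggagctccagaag
TGFBR2: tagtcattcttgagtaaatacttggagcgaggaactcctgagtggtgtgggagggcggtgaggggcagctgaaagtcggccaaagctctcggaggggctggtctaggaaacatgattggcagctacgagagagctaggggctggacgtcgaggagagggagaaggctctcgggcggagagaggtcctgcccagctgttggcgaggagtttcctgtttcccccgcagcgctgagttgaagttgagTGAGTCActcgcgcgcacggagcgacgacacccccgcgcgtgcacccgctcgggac
Capitals mark matches, on either strand, to CAGACA (which holds the SMAD-binding core), CACGTG (the E-box), ACGTCA (found in cyclic AMP response elements) and TGACTCA (the AP-1 element, read here as TGAGTCA). In the TGFB2 window CAGACA and CACGTG overlap. Of 25 such windows for the 10 genes, 4 held CAGACA, 2 held CACGTG, 2 held ACGTCA and 2 held TGACTCA. Among 35116 windows of the same length over all genes, 16.9%, 7.26%, 7.98% and 4.95% held them. A match describes the letters of a window and shows no binding.

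Of the 4 SMADs, SMAD4 fell the most. This shared partner of all receptor-activated SMADs lies on chromosome 18, 51030213 to 51085039, on the plus strand. It had 17.8, 16.3 and 15.7 CPM in shHNRNPC libraries, against 23.5, 20.8 and 23.0 CPM in shcontrol libraries, with no overlap. The 1.36-fold fall had a log2 fold change of -0.44 (95% interval -0.60 to -0.28, edgeR adjusted p = 7.64e-06). The call was lost with GC content and length offsets (log2 fold change -0.097, adjusted p = 0.312). In GENCODE 29 a second gene, AC091551.1, overlaps SMAD4 on the same strand, and reads that match both are uncertain.

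As counted, the receptor-activated SMADs differed by small amounts in opposite directions. SMAD2 had 59.0, 56.9 and 55.8 CPM in shHNRNPC libraries, against 53.0, 50.5 and 54.5 CPM in shcontrol libraries. Its lowest shHNRNPC value was just above its highest shcontrol value, and the 1.09-fold rise had a log2 fold change of 0.12 (95% interval 0.019 to 0.22, edgeR adjusted p = 0.0341). The call was lost by DESeq2 (adjusted p = 0.0687), by scaling to library size alone (log2 fold change 0.078, adjusted p = 0.167), and without SI_3 (0.137), SI_3_2 (0.0607), NC_3 (0.0563) or NC_3_2 (0.159), given as adjusted p. The SMAD2 rise was larger with GC content and length offsets (log2 fold change 0.51, edgeR adjusted p = 1.23e-14), a value at the edge of the length fit. SMAD3 had 83.1, 84.3 and 80.7 CPM in shHNRNPC libraries, against 90.4, 88.6 and 89.4 CPM in shcontrol libraries. Its groups did not overlap, and the 1.08-fold fall had a log2 fold change of -0.11 (95% interval -0.19 to -0.034, edgeR adjusted p = 0.0116). Without SI_3_3 the adjusted p was 0.0575.

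SMAD7, the inhibitory SMAD, had 25.6, 21.3 and 24.3 CPM in shHNRNPC libraries, against 20.05, 22.6 and 24.9 CPM in shcontrol libraries. The groups overlapped across most of their range. The log2 fold change was 0.072 with a 95% interval of -0.088 to 0.23 (edgeR adjusted p = 0.444), so a difference of up to 1.17-fold higher lies within the interval. SKIL, which holds SMAD complexes in a repressed state, was the least counted of the 10 genes. It had 2.86, 2.74 and 2.38 CPM in shHNRNPC libraries (42 to 48 counts), against 4.94, 3.16 and 4.73 CPM in shcontrol libraries (50 to 88 counts). The shcontrol library NC_3_2 came close to the shHNRNPC values without overlap. The 1.62-fold fall had a log2 fold change of -0.70 with a wide 95% interval, -1.08 to -0.31 (edgeR adjusted p = 0.00157). With GC content and length offsets the call was lost (log2 fold change -0.22, adjusted p = 0.342). In the deposited table SMAD2 lies on chromosome 18, 47808957 to 47930559 (minus strand), SMAD7 on chromosome 18, 48920993 to 48949333 (minus strand), SMAD3 on chromosome 15, 67138001 to 67190894 (plus strand), and SKIL on chromosome 3, 170357734 to 170392947 (plus strand). Whether the 2 feedback inhibitors differ in their response was not tested.

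TGFBI, an extracellular matrix protein named for its induction by TGF-beta (chromosome 5, 136028895 to 136063817, plus strand), had 66.6, 66.2 and 72.0 CPM in shHNRNPC libraries, against 66.5, 61.5 and 58.4 CPM in shcontrol libraries. The groups overlapped through NC_3. The 1.10-fold rise had a log2 fold change of 0.14 (95% interval 0.040 to 0.24, edgeR adjusted p = 0.0129). The call was lost without SI_3_3 (adjusted p = 0.119) or NC_3_3 (adjusted p = 0.142) and with library size alone (adjusted p = 0.0775), and with GC content and length offsets the log2 fold change was -0.0012.

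**Figure D2:**
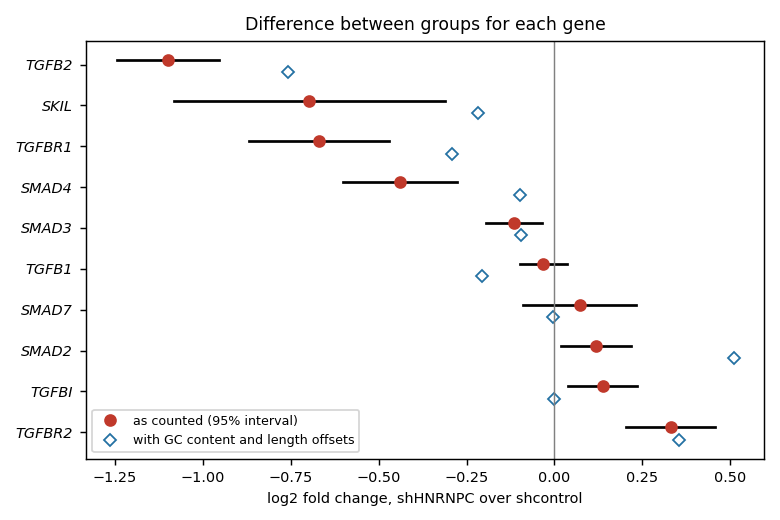
Log2 fold change of shHNRNPC over shcontrol for each gene as counted (filled circles, lines are 95% intervals) and with offsets for transcript GC content and length (open diamonds). The offsets move TGFB2 from -1.10 to -0.76, bring SMAD4 and SKIL nearer to 0 and raise SMAD2 to 0.51.

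To compare genes with each other, CPM were divided by the length of the longest coding transcript in GENCODE 29, in kilobases. On this scale TGFB1 had the highest level of the 10 genes and SKIL the lowest in both groups. TGFB1 averaged 57.6 ± 2.11 CPM per kilobase in shHNRNPC and 58.8 ± 2.37 in shcontrol, and TGFBI, the next, 24.4 ± 1.16 in shHNRNPC and 22.2 ± 1.45 in shcontrol (SD, n = 3 per group). SMAD3 and TGFBR2 followed in both groups. SKIL averaged 0.370 ± 0.0350 CPM per kilobase in shHNRNPC and 0.596 ± 0.135 in shcontrol. TGFB2 ranked 6 of 10 in shHNRNPC cells, below SMAD7, and 5 of 10 in shcontrol cells, above SMAD7. TGFBR1 ranked 9 in shHNRNPC cells, below SMAD2, and 8 in shcontrol cells, above SMAD2. Neighbours in the order did not overlap in shHNRNPC libraries, while in shcontrol libraries TGFBR2 overlapped with TGFB2, and SMAD4 with TGFBR1. The order depends on the transcripts that the cells use, which were not measured. The annotated SMAD2 transcript has 34526 bases, and a shorter one would place SMAD2 higher.

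**Figure D3:**
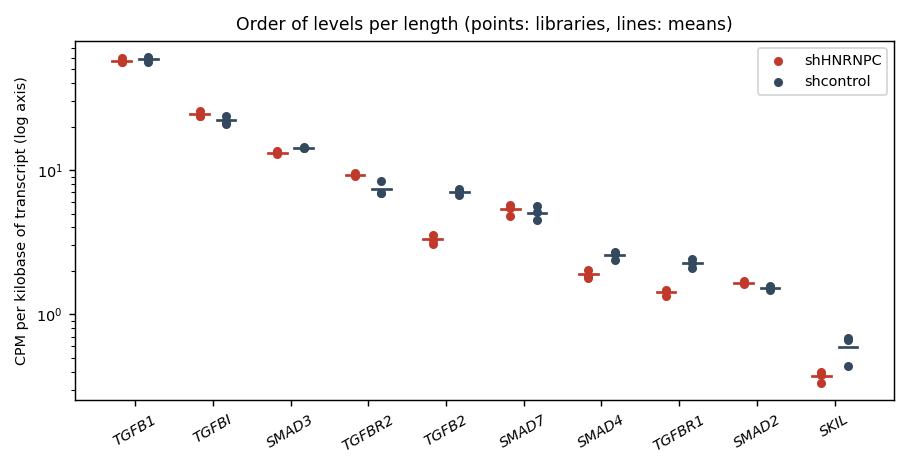
CPM per kilobase of transcript for the 10 genes on a log axis, ordered by the shcontrol mean, with shHNRNPC left of shcontrol for each gene. Points are libraries and lines are means. TGFB1 is highest and SKIL lowest in both groups, and TGFB2 drops below SMAD7 in shHNRNPC.

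The 4 genes with the largest falls shared a transcript composition. In the longest coding transcripts of GENCODE 29, GC content was 38.9% for TGFB2, 39.0% for TGFBR1, 33.4% for SKIL and 41.1% for SMAD4. TGFBR2, which rose, was at 47.4% and TGFB1 at 63.5%. SMAD2, which was 1.09-fold higher, was at 40.2%, so low GC content did not go with a fall in every case. Runs of 5 or more T, written for uridine, occurred 6.53 times per kilobase in TGFB2, 4.91 in TGFBR1, 4.75 in SMAD2, 4.46 in SKIL, 4.11 in SMAD4, 3.39 in SMAD7, 2.72 in SMAD3, 2.38 in TGFBR2, 1.07 in TGFBI and none in TGFB1. The order did not follow the calls throughout, since SMAD7 and SMAD2 had more runs than SMAD3, which fell. TGFB2 had a higher density of such runs than 99.3% of tested genes. Of the 10 genes, 6 were in the highest quintile of tested genes by this density. In that quintile 49.0% of genes were called lower and 17.7% higher, with a median log2 fold change of -0.18, while in the lowest quintile 14.2% were lower and 41.6% higher. In the lowest quintile by GC content, which held SKIL, SMAD2, TGFB2 and TGFBR1, 60.9% of genes were called lower, 9.01% higher, and the median was -0.37. Over 11813 genes, which are not independent replicates, Spearman's rho with the log2 fold change was 0.43 for GC content, -0.32 for length and -0.31 for the density of T runs. Whether composition has a part in the changes was not tested.

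The longest uridine run of 4 transcripts is shown because such runs are the kind of sequence that hnRNP C binds, for the 3 falling genes with the smallest adjusted p and for the gene that rose most. Each window is 30 bases of the GENCODE 29 transcript in the 3′ UTR, GRCh38, plus strand, with the run in capitals.
TGFB2: tgaatctgTTTTTTTTTTTTTTaatttggg
TGFBR1: tttttttgTTTTTTTTTTTTTgttgttgtt
SMAD4: agagttggTTTTTTTTTTTTTTaattttta
TGFBR2: tttgtttatgTTTTTTTTTcttattcaaga
They lie at chr1:218443702-218443731 for TGFB2, chr9:99151390-99151419 for TGFBR1, chr18:51079958-51079987 for SMAD4 and chr3:30693829-30693858 for TGFBR2. The runs are 14, 13, 14 and 9 bases long. SKIL, which fell, SMAD2, which rose slightly, and SMAD7, which did not pass, have longer runs, of 31, 27 and 17 bases, and SMAD3 has one of 13 bases. The runs of TGFBR1, SKIL, SMAD7 and SMAD3 lie outside the gene positions in the deposited table, so whether they were part of the counted transcripts is not known. The shortest were in TGFB1, which did not pass (4 bases), and TGFBI, which rose slightly (5 bases). The order of run lengths did not follow that of the changes throughout, and whether run length has a part in them was not tested. Introns, where hnRNP C binds most, were not analysed here.

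**Figure D4:**
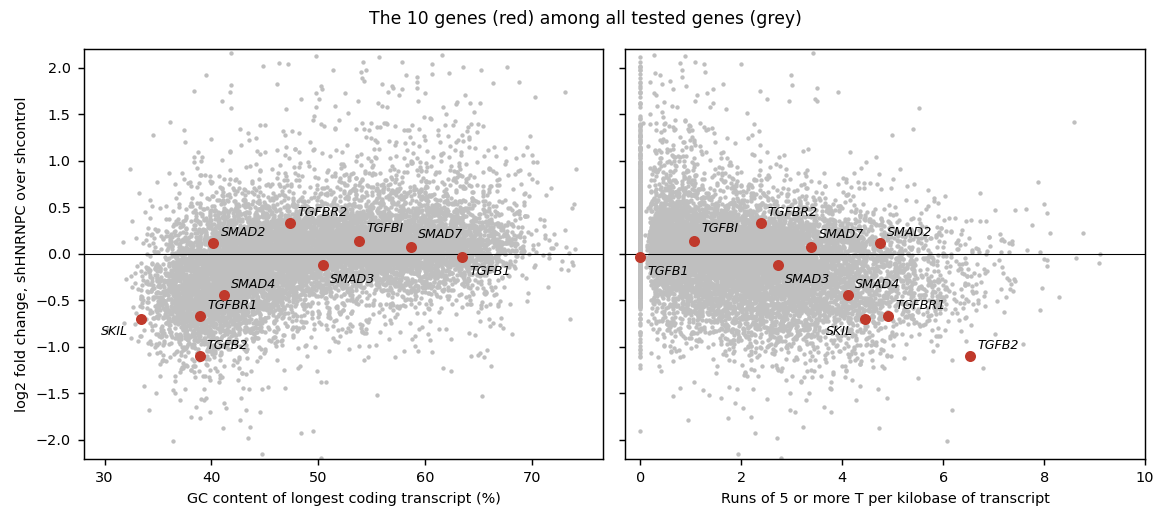
Log2 fold change of shHNRNPC over shcontrol against transcript GC content (left, %) and against runs of 5 or more T per kilobase (right). Red points are the 10 genes and grey points all tested genes within the axes. TGFB2, TGFBR1, SKIL and SMAD4 lie at low GC content and below 0, with SMAD2 beside them above 0.

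The other genes of the pathway were grouped by role into lists chosen with earlier results of these data known. Of 85 tested genes in these lists 23 were higher and 36 lower, against 29.8% and 31.3% of all tested genes. The test against 1.5-fold was passed by 4, 1 higher and 3 lower, against 5.14%, 1.83% and 3.3% of all tested genes. The median log2 fold change of the 85 genes was -0.067, against -0.0041 over all tested genes. These shares and this median are also the background for each list below. Among genes of latency and activation 3 of 9 were higher and 4 lower. ITGAV, an integrin chain that helps to release latent TGF-beta, fell 1.47-fold (126.5 ± 2.75 CPM in shHNRNPC, 187 ± 4.88 CPM in shcontrol, adjusted p = 5.89e-20). THBS1, the matrix protein thrombospondin-1, which can activate latent TGF-beta, fell 1.22-fold, and LTBP3, a latent TGF-beta binding protein, rose 1.27-fold. Of activin and BMP ligands and antagonists 2 of 7 were higher and 3 lower. The 3 with the smallest adjusted p all fell, namely the ligand BMP4 (1.18-fold), the activin antagonist FSTL3 (1.10-fold) and the ligand GDF11 (1.23-fold).

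Among the other receptors 6 of 12 were higher and 3 lower, and their median log2 fold change of 0.52 was the highest of the 7 lists. CD109, a coreceptor that dampens TGF-beta signalling, fell 1.60-fold (39.1 ± 2.29 CPM in shHNRNPC, 62.3 ± 2.21 CPM in shcontrol, adjusted p = 3.05e-15). BAMBI, a pseudoreceptor that lacks a kinase domain, rose 1.61-fold (38.1 ± 1.63 CPM in shHNRNPC, 23.7 ± 2.04 CPM in shcontrol, adjusted p = 2.92e-12). The BMP and activin type I receptor ACVR1 rose 1.41-fold. The activin type II receptor ACVR2A, named after its values were seen, rose 1.90-fold (15.6 ± 2.89 CPM in shHNRNPC, 8.22 ± 0.574 CPM in shcontrol) and passed the test against 1.5-fold (adjusted p = 0.00979). TGFBR3, the coreceptor of TGFB2, fell with a log2 fold change of -0.41 (adjusted p = 2.08e-05) and was also named after its values were seen. Of the other 4 SMADs, SMAD5 of the BMP branch fell 1.52-fold, SMAD9 of the same branch fell 1.36-fold, the inhibitory SMAD6 rose 1.33-fold and SMAD1, named after its values were seen, did not pass (log2 fold change 0.039, adjusted p = 0.756).

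Nuclear coactivators and corepressors had 3 of 9 higher and 4 lower. The deacetylase HDAC1 rose 1.20-fold to 492 ± 10.7 CPM in shHNRNPC, against 412 ± 4.69 CPM in shcontrol, the corepressor NCOR1 fell 1.39-fold and the acetyltransferase EP300 fell 1.21-fold. Among 21 genes of SMAD and receptor turnover 3 were higher and 11 lower, with a median of -0.21. The ubiquitin ligase ITCH fell 1.69-fold (39.4 ± 0.274 CPM in shHNRNPC, 66.8 ± 1.60 CPM in shcontrol) and passed the test against 1.5-fold (adjusted p = 0.00266). The deubiquitinase USP9X, which acts on SMAD4, fell 1.32-fold, and caveolin CAV1 fell 1.33-fold. Of 23 TGF-beta target genes 5 were higher and 9 lower, with a median of -0.059. CTGF, a matricellular protein, fell 1.64-fold (151 ± 4.46 CPM in shHNRNPC, 249 ± 4.57 CPM in shcontrol) and passed the test against 1.5-fold (adjusted p = 1.65e-04). CYR61 of the same family fell 1.36-fold, and the basement membrane collagen COL4A1 rose 1.20-fold. Many of these targets also answer to other pathways, and ligand, receptor phosphorylation and SMAD protein were not measured.

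**Figure D5:**
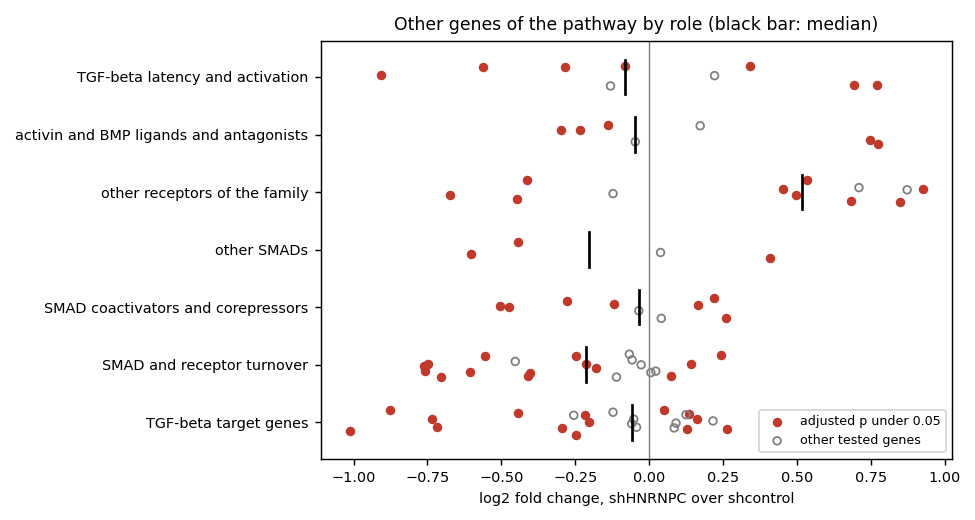
Log2 fold change of shHNRNPC over shcontrol for the tested genes of 7 role lists, 1 point per gene. Filled points passed an adjusted p of 0.05, open points did not, and black bars are list medians. The median of the other receptors lies at 0.52 and that of the turnover genes at -0.21.

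Profiles over the 6 libraries were compared by the root mean square distance of centred log2 CPM among genes with a mean of at least 10 CPM. The nearest to TGFB2 were SLC4A7, a bicarbonate cotransporter (distance 0.036, log2 fold change -1.09), and CSDC2, an RNA-binding protein (distance 0.045, log2 fold change -1.09). The nearest to TGFBR1 were FAM208B (distance 0.024, log2 fold change -0.65) and USP40, a deubiquitinase family member (distance 0.028, log2 fold change -0.66). For SKIL the nearest gene, FIGNL1, stood farther away, at a distance of 0.12 (log2 fold change -0.53). SKIL itself averaged 2.66 CPM in shHNRNPC and 4.28 CPM in shcontrol, below the minimum set for the compared genes. Whether its low counts have a part in that distance was not tested.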

How the data were processed

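RNA was sequenced from 6 MHCC97H libraries, 3 shHNRNPC and 3 shcontrol, prepared from total RNA with a NEBNext kit, per the labels' protocols. Tools named per the submitters' processing notes are STAR, HTSeq 0.6.0 and DESeq2. Build, annotation and strand setting were not given in the sources used here. GENCODE 29 (GRCh38) has the same-named gene at 96.1% of the deposited positions. The deposited counts are whole numbers per gene, not normalised by the authors. The authors' deposited log2 fold changes and p-values served for comparison only. Another 24 columns of library values were not used. Columns named SI and NC were assigned as groups, and their suffixes do not give the replicate numbers of the titles.

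Counts were filtered with filterByExpr, scaled by TMM (factors 0.985 to 1.02) and tested with glmQLFit, glmQLFTest and glmTreat in edgeR 4.0.16 (R 4.3.3), with Benjamini-Hochberg adjustment over 11831 genes. CPM use the TMM-scaled library sizes, except summed marker levels, which use total counts. Standard errors were the log2 fold change over the root of the F statistic, with 95% intervals from its t distribution. Levels between genes were compared as CPM per kilobase of the longest coding GENCODE 29 transcript, in place of the planned FPKM columns, which were not used here. The alternatives were RLE, upper quartile and library-size scaling, no filter, a minimum mean of 1 CPM, DESeq2 1.42.0, limma voom 3.58.1, offsets from natural splines (5 degrees of freedom each) on transcript GC content and length for 11813 genes, leaving out each library, and a block on the suffix of the column names, which was added after seeing the data. Scripts were tested on simulated counts with 200 changed genes. Chi-square per gene between libraries of a group was 1.56 to 2.50, where counting noise alone gives about 1, so no library was taken as a second deposit of another. Separate preparations of 1 RNA would also exceed counting noise and cannot be told apart from separate cultures here. Text names the 10 genes, HNRNPC, the 3 genes of each pathway list with the smallest adjusted p, and the 2 nearest profiles of the 3 genes with the largest changes, of which 1 is not reported here. Cell type markers and the genes marked as named after their values were seen fall outside that rule. The genes and lists were chosen with earlier results of these data known. Promoter sequences are from RefSeq, GRCh38.p14, matched by symbol for 10 of 10 genes.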

Additional observations from a re-analysis of the deposited data

How the results depend on the processing

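Over 15 alternatives and 10 genes, 136 of 150 fold changes kept their side of the threshold, with no called one changing direction. A further 12 lost their call in the same direction, and 1 gained one (TGFB1 with GC content and length offsets). The last, TGFBI with those offsets, lost its call with a change of sign (log2 fold change -0.0012, edgeR adjusted p = 0.986). TGFB2, TGFBR1 and TGFBR2 were called in the same direction in all 15, with log2 fold changes of -1.16 to -0.76, -0.72 to -0.29 and 0.28 to 0.42. SMAD7 was called in none. With library size alone 1 of the 10 genes was called higher and 5 lower, against 3 and 5 with TMM. Of all 11831 tested genes 2988 were higher and 4160 lower with library size alone, against 3520 and 3708 with TMM. With GC content and length offsets 0 of the 10 passed the test against 1.5-fold, against 1 without, and 2 were called higher and 4 lower. That 0 is by edgeR with adjustment, and at an unadjusted p under 0.05 the count was 1 (TGFB2); DESeq2 and limma voom without offsets also gave 1. Leaving out each library gave 6 to 7 called genes and 52 to 57 called pathway genes, against 8 and 59 with all libraries. Over all tested genes, leaving out each library gave 6733 to 6984 called, against 7228. The offsets gave 3092 higher and 3558 lower of 11813. Past 1.5-fold there were 334 with offsets, 309 by DESeq2 and 438 by limma voom, against 608 in the main fit. The authors' deposited table gives 5 of the 10 genes an adjusted p under 0.05, without SMAD2, SMAD3 and TGFBI, which the main fit called. The share over all its genes is not given here, so that count is no result about the 10 as a set. The annotated SMAD2 transcript of 34526 bases is longer than nearly all others, so its value with offsets (0.51) rests on the edge of the length fit. SKIL, with 42 to 88 counts per library, has the least precise value. The column names share suffixes between the groups, which the labels do not tie to samples, and libraries with the same suffix did not deviate together (r of -0.041, 0.0084 and -0.043 over 11831 genes). A fit with this replicate block, added after seeing the data, called the same numbers of the 10 genes, 3 higher and 5 lower, and 57 pathway genes against 59. That fit called 7159 of all 11831 tested genes, against 7228 without the block.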

Other observations

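ZEB1, a repressor of epithelial genes on the target list, named after its values were seen, fell 2.02-fold (4.24 ± 0.892 CPM in shHNRNPC, 8.52 ± 0.474 CPM in shcontrol, SD, n = 3 each, edgeR adjusted p = 4.06e-08) and passed the test against 1.5-fold (adjusted p = 0.0121). TGFB3, the third ligand, also named after its values were seen, averaged 3.49 ± 0.654 CPM in shHNRNPC and 2.17 ± 0.446 CPM in shcontrol and rose with a log2 fold change of 0.69 (edgeR adjusted p = 0.00417).

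SMAD2, SMAD7 and SMAD4 lie within 3.28 megabases of chromosome 18 in the deposited table. Of 15 tested genes in that interval, which include SMAD2 and SMAD4 at its ends, 3 were higher and 2 lower, against 29.8% and 31.3% of all tested genes. SMAD2 is among the 3 and SMAD4 among the 2, and SMAD7, also among the 15, did not pass. The count is therefore not one of the neighbours alone.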
